A study of Mus musculus with 13 samples.

Results

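The FKBP genes encode immunophilins, enzymes that turn peptide bonds before proline and that bind the drugs FK506 and rapamycin. The members were 10 genes chosen by name (Fkbp1a, Fkbp2, Fkbp3, Fkbp4, Fkbp5, Fkbp7, Fkbp8, Fkbp10, Fkbp11 and Fkbp14), read from every probe set that the array annotation gives to exactly 1 of them. Fkbp5 and Fkbp7 were picked for their measured values, Fkbp5 for a higher level in transgenic KLS cells and Fkbp7 for a lower level in transgenic SLAM cells. Those 2 contrasts are therefore described here without a test for any member.

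Of the 10 genes, 9 had probe sets, 82 in all among 229581 on the array, and none of these was shared with another gene. Fkbp10, a collagen chaperone of the endoplasmic reticulum, had 0 probe sets under its name or an older symbol and is not analysed here. Fkbp14 had 6 probe sets and a mean log2 level of 4.99, below the threshold of 6 for entering the tests. The other 8 members passed that filter, as did 10575 of 15107 genes with at least 3 probe sets.

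Bone marrow came from mice in which the PML-RARA fusion of acute promyelocytic leukaemia is expressed from the murine Ctg locus, as the labels spell it (genotype mCG-PR N17), and from wild-type (WT) littermates, all of strain Bl/6 Taconic. Each of 13 Affymetrix Mouse Exon 1.0 ST arrays held RNA sorted from 1 mouse. KLS cells are the lineage-negative, Sca1-positive, Kit-positive pool of stem cells and multipotent progenitors, and SLAM cells are a subset enriched for long-term stem cells by receptors of the SLAM family. The groups were WT KLS (4 arrays, 12 and 13 weeks), mCG-PR KLS of 6 weeks (3 arrays), mCG-PR KLS of 13 weeks (2 arrays), WT SLAM of 6 weeks (2 arrays) and mCG-PR SLAM of 7 weeks (2 arrays). The locus, that of cathepsin G, is mainly active in granulocyte precursors. The sources used here give no gates for the sorts.

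Levels are log2 intensities, the median over the probe sets of a gene, and 1 unit is a doubling. A probe's level depends on its sequence, so levels are compared between arrays and not between genes. Differences carry the standard error (SE) of limma, and spreads within a group are standard deviations (SD).

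The sorted populations carried the markers of their labels, except that Slamf1 was lower in mCG-PR SLAM (6.21 and 6.63) than in WT SLAM (7.47 and 7.68). The 5 KLS markers averaged 9.51 to 10.15 on the KLS arrays and 7.68 to 8.31 on the SLAM arrays. Among them Kit and Ly6a (Sca1) overlapped between the populations, while Cd34, Flt3 and Cd48 were lower on every SLAM array. Cd48, which SLAM stem cells lack, lay between 4.24 and 5.56 there and between 8.28 and 9.61 on the KLS arrays. On the second principal component WT SLAM replicate 2 scored 46.8, while the 12 others scored -21.6 to 2.9. Its mean over the neutrophil markers was 11.58, the highest of any array. The 2 measured Y-linked markers averaged 4.23 and 4.28 in mCG-PR SLAM and 4.53 in replicate 3 of mCG-PR KLS at 6 weeks, and 7.67 to 8.48 elsewhere. Genotype therefore went with the Y-linked signal in the SLAM comparison, and their parts cannot be told apart there. WT KLS mice were older than the 6-week mCG-PR mice, so age and genotype cannot be told apart in that contrast either. WT KLS mice were also older than the WT SLAM mice of 6 weeks, so age and population cannot be told apart in WT. In mCG-PR the SLAM mice were of 7 weeks and the KLS mice compared with them of 6 weeks. Both of those SLAM arrays had a low Y-linked signal, but among those KLS arrays only replicate 3 did. Population is thus not cleanly separated from age or the Y-linked signal there.

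The family falls into compartments. Fkbp4, Fkbp5 and Fkbp8 carry tetratricopeptide repeats that dock on the chaperone Hsp90. Fkbp4 helps the glucocorticoid receptor to bind hormone and reach the nucleus, whereas Fkbp5 holds the receptor back and is itself induced by glucocorticoids, which closes a feedback loop. Fkbp2, Fkbp7, Fkbp10, Fkbp11 and Fkbp14 are directed to the secretory pathway, where they assist protein folding, and Fkbp7 binds calcium and the chaperone BiP. Fkbp1a is the cytosolic receptor of FK506 and rapamycin, and Fkbp3 is nuclear.

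Promoters are shown for Fkbp4 and Fkbp5, whose levels moved together over the arrays, and for Fkbp7, whose level differed most between genotypes among the members. Each is the 250 bases before the gene's start in RefSeq, build GRCm38.p6, on the minus strand at chr6:128438657-128438906, chr17:28486150-28486399 and chr2:76673099-76673348 respectively, written from 5′ to 3′. Capitals mark matches, on either strand, to the motifs named after the sequences.
Fkbp4: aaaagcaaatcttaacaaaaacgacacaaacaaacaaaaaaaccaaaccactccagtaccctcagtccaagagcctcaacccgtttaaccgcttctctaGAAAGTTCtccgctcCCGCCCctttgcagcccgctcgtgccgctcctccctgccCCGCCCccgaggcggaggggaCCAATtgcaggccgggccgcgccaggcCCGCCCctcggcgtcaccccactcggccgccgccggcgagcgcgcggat
Fkbp5: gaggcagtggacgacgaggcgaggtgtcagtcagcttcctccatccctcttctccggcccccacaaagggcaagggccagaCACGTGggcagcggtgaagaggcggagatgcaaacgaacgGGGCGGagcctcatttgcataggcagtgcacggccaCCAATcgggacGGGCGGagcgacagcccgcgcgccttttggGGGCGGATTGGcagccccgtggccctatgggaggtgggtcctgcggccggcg
Fkbp7: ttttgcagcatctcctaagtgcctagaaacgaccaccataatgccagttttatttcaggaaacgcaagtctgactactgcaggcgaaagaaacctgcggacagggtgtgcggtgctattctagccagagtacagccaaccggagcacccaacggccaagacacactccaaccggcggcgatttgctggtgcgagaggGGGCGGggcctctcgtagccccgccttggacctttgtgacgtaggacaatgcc

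The Fkbp5 window held 3 GC boxes (GGGCGG), 2 CCAAT boxes (CCAAT) and 1 E-box (CACGTG), and 1 GC box ran straight into a CCAAT box at its 3′ end. Fkbp4 also held 3 GC boxes, with 1 CCAAT box and 1 heat shock core (GAANNTTC), the only match to that core among 13 windows of the 9 member genes. Fkbp7 held 1 GC box. Over all 32851 promoter windows of this length, 32.7% held a GC box, 33.8% a CCAAT box, 6.02% an E-box and 6.69% a heat shock core. GC content was 63.2% for Fkbp4, 68% for Fkbp5 and 56.4% for Fkbp7, against a median of 52.4% over all windows. None of the 13 member windows held the glucocorticoid half-site AGAACA, which 16.1% of all windows held. That says only that these letters are not in these 250 bases.

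Fkbp5 was higher on every mCG-PR KLS array than on any WT KLS array, by 1.16 ± 0.16 (SE) on the log2 scale, or 2.23-fold. The WT KLS arrays read 6.97, 6.99, 7.24 and 7.06. The mCG-PR arrays read 7.93, 7.95 and 8.45 at 6 weeks and 8.26 and 8.54 at 13 weeks. The lowest transgenic array thus stood above the highest WT array, and both ages overlapped each other. The difference from WT was 1.05 ± 0.17 at 6 weeks and 1.33 ± 0.19 at 13 weeks, where the controls were of the same or nearly the same age. In RNA from a sorted pool, a change in the share of cells that express a gene and a change in RNA per cell cannot be told apart.

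**Figure D1:**
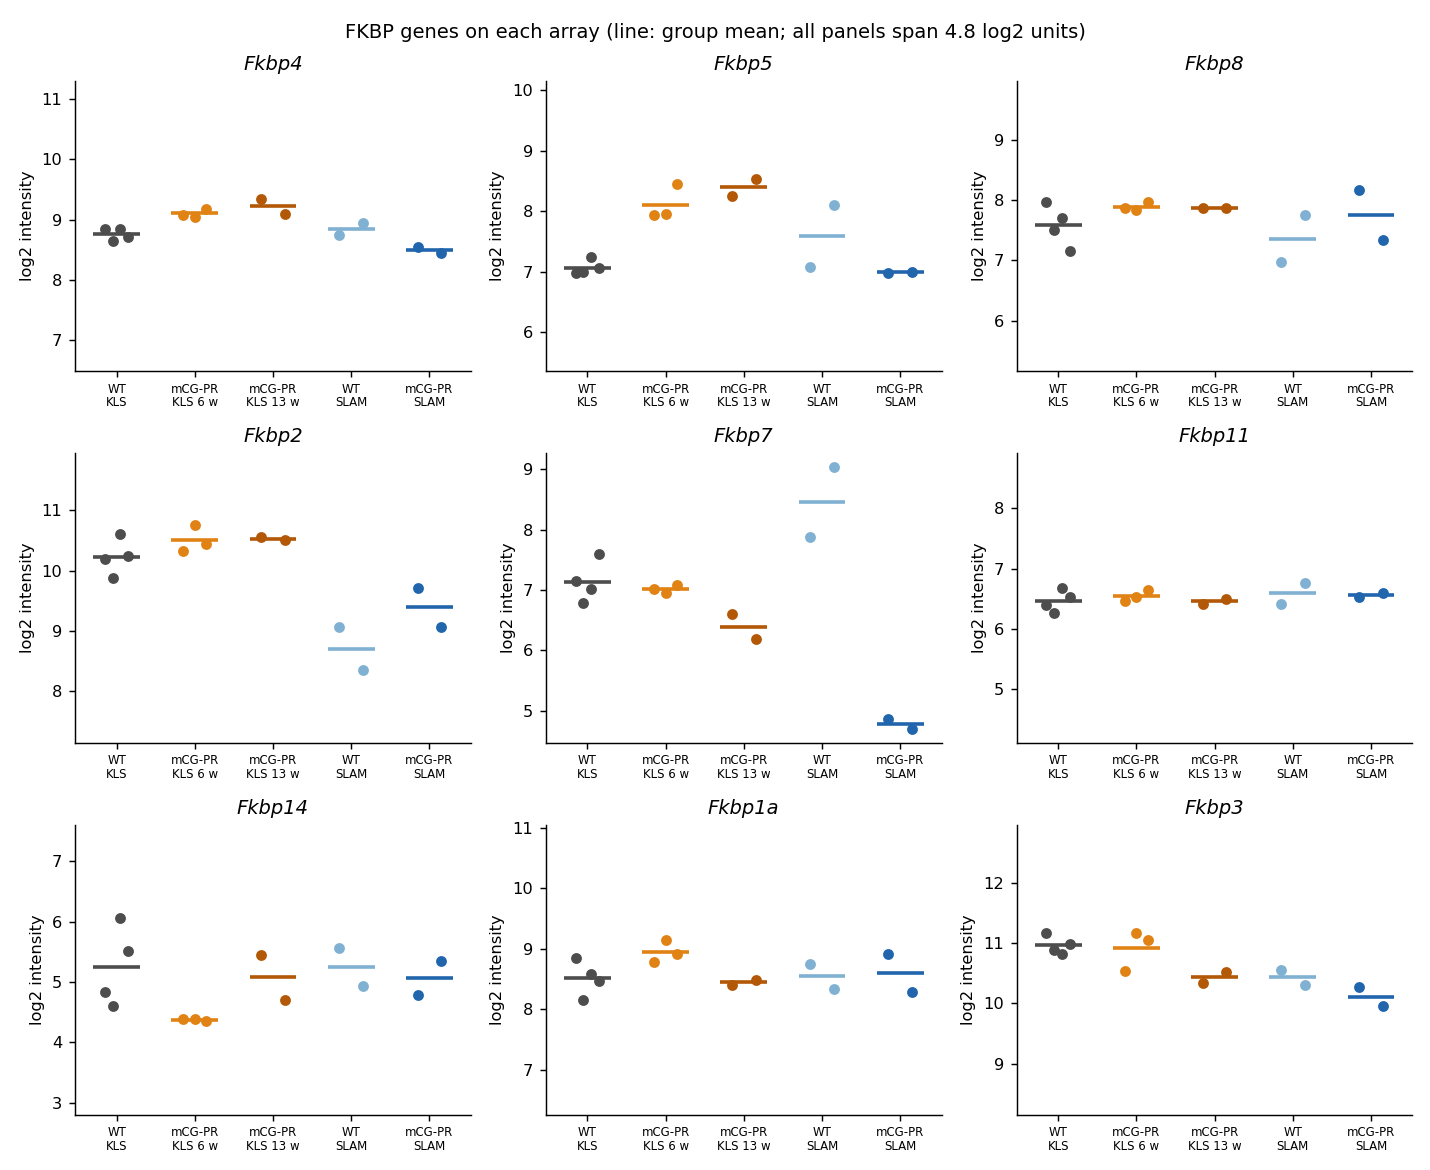
Level of each of the 9 measured FKBP genes on the 13 arrays, in log2 intensity (y axis), by group (x axis). Points are arrays and lines are group means. The 5 mCG-PR KLS arrays lie above all 4 WT KLS arrays for Fkbp5, and the 2 mCG-PR SLAM arrays lie below all others for Fkbp7.

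Each of the 14 probe sets of Fkbp5 was higher in mCG-PR KLS than in WT KLS, by 0.44 to 1.67. In 9 of them the arrays of the 2 genotypes did not overlap, and 8 differed by more than 1. The higher level thus held for every queried part of the transcript. Probe sets of 1 gene share the RNA of an array and are not replicates.

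In SLAM cells Fkbp5 gave no such uniform picture. It read 7.07 and 8.10 on the WT arrays and 6.98 and 7.00 on the mCG-PR arrays, a difference of -0.60 ± 0.40. The high WT array was replicate 2, the one that stood apart, and without it the difference was -0.08. Without WT SLAM replicate 1 it was -1.11, and with the mean of the probe sets -0.24. Its probe sets were split, with 6 higher and 8 lower in mCG-PR SLAM, from -3.09 to 1.57.

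By mean level Fkbp5 ordered the groups as mCG-PR KLS of 13 weeks (8.40 ± 0.20 SD), mCG-PR KLS of 6 weeks (8.11 ± 0.29 SD), WT SLAM (7.59 ± 0.73 SD), WT KLS (7.07 ± 0.12 SD) and mCG-PR SLAM (6.99 ± 0.01 SD). The top pair of groups overlapped, and so did WT SLAM with both of its neighbours. WT KLS and mCG-PR SLAM overlapped as well. The SLAM stem cell markers (4 measured of 5) averaged 7.88 to 8.36 in WT KLS and less in mCG-PR KLS, 7.41 to 7.83 at 6 weeks and 7.53 to 7.54 at 13 weeks, with no overlap. Marker lists of mature blood, stromal and plasma cells overlapped between genotypes on the KLS arrays. The T and NK cell markers averaged 5.79 to 6.33 in WT and 6.06 to 6.58 in mCG-PR, and the neutrophil markers 9.76 to 9.97 and 8.99 to 10.04. At 13 weeks alone these lists did not overlap with WT KLS, at 6.39 to 6.42 and 9.14 to 9.23. Nor did the erythroid markers, at 6.39 to 6.61 against 6.01 to 6.36 in WT KLS. The remaining lists overlapped at that age. Of single markers S100a8, a neutrophil calcium-binding protein, was lower on every mCG-PR KLS array (10.30 to 11.46) than on any WT KLS array (11.65 to 12.20). Their part in the Fkbp5 difference was not tested.

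Fkbp4, which like Fkbp5 docks on Hsp90, was also higher on every mCG-PR KLS array than on any WT KLS array, by 0.38 ± 0.12. It read 8.85, 8.64, 8.85 and 8.72 in WT KLS. The mCG-PR KLS arrays read 9.08, 9.05 and 9.18 at 6 weeks and 9.35 and 9.09 at 13 weeks. In 11 of its 12 probe sets the difference was positive, from -0.02 to 0.82 over all of them. Relative to the median shift of all genes (0.09), the Fkbp4 difference was 0.30.

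In SLAM cells Fkbp4 was lower in mCG-PR (8.54 and 8.44) than in WT (8.75 and 8.95), by -0.36 ± 0.30. Of its 12 probe sets, 10 were lower and 1 was higher. With the mean of the probe sets the difference was -0.67, and without dim probe sets -0.22. The SE was nearly as large as the difference. The 2 pairs of arrays did not overlap, as was the case for 35.2% of all genes in this contrast.

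Over the 13 arrays Fkbp4 had a Pearson r of 0.87 with Fkbp5, the 4th highest of 10574 genes. The arrays share their groups, so this r includes the differences between groups. The other genes most like Fkbp5 were Hyou1, a chaperone of the endoplasmic reticulum (0.915), Ly6d, a marker of lymphoid progenitors (0.904), Kif22, a mitotic kinesin (0.884), and Lamc1, a laminin chain (0.864). Ly6d read 6.96 to 7.74 in WT KLS and 8.10 to 8.46 in mCG-PR KLS of both ages. It was also high, like Fkbp5, on 1 of the 2 WT SLAM arrays, which spanned 6.67 to 8.43.

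**Figure D2:**
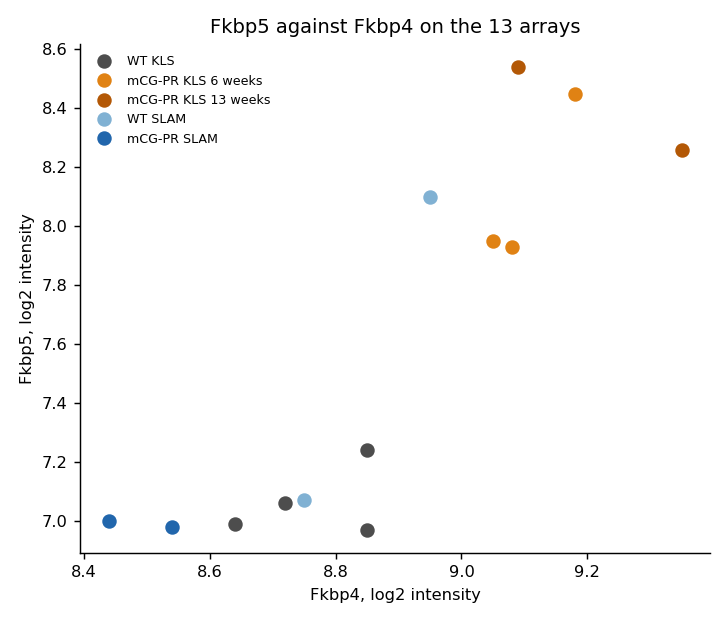
Fkbp5 (y axis) against Fkbp4 (x axis) on the 13 arrays, both as log2 intensity, with colours for the 5 groups. The 5 mCG-PR KLS arrays occupy the upper right, from 9.05 upward for Fkbp4 and from 7.93 for Fkbp5, and the mCG-PR SLAM arrays the lower left.

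Fkbp8, which sits in the mitochondrial membrane and binds Bcl-2, overlapped between genotypes in both populations. It was 0.30 ± 0.16 higher in mCG-PR KLS, or 0.16 without WT KLS replicate 4. In SLAM the difference was 0.40 ± 0.43, and single arrays set it, with a range of -0.02 to 0.81 when 1 of the SLAM arrays was left out. WT KLS alone spanned 7.16 to 7.97, which covered all 5 mCG-PR KLS arrays.

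Fkbp7 was 12.8-fold lower in mCG-PR than in WT SLAM cells, a log2 difference of -3.68 ± 0.46 (SE) and the largest genotype difference of any member. The WT SLAM arrays read 7.88 and 9.04, and the mCG-PR SLAM arrays 4.87 and 4.70. Those WT arrays were the highest of all 13 and the mCG-PR SLAM arrays the lowest. Without WT SLAM replicate 2, the array that stood apart, the difference was -3.09, and without replicate 1 it was -4.26.

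The size of the Fkbp7 difference rested on 3 of its 5 probe sets. All 5 were lower in mCG-PR SLAM, but 3 differed by -3.81, -4.59 and -5.05 and the other pair by -0.24 and -0.42. The probe set with the largest difference read 8.45 and 9.56 in WT SLAM and 4.87 and 3.03 in mCG-PR SLAM. The one with the smallest read 4.00 and 6.66 in WT and 4.23 and 5.94 in mCG-PR, so its arrays overlapped. With the mean of the probe sets in place of the median, the difference was -2.82.

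**Figure D3:**
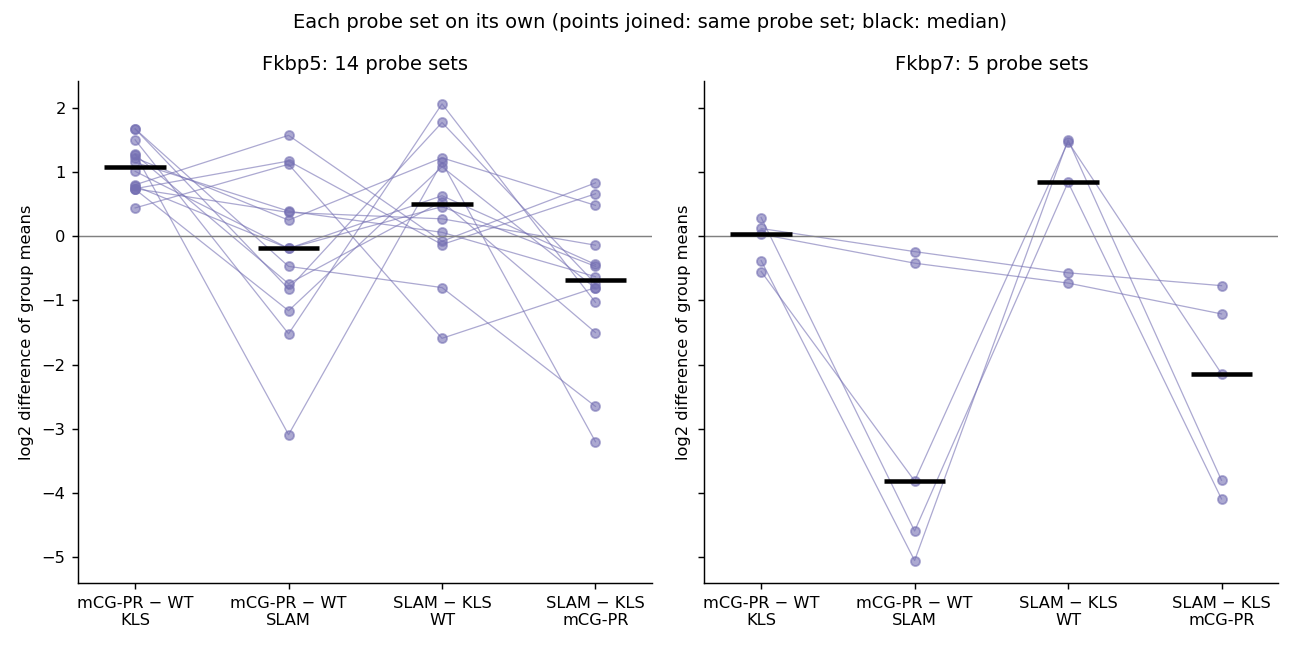
Log2 difference of group means (y axis) for each probe set of Fkbp5 (left, 14 probe sets) and Fkbp7 (right, 5 probe sets) in 4 comparisons (x axis, mCG-PR KLS of both ages in the first and of 6 weeks in the last). Lines join a probe set across comparisons and black bars are medians. All Fkbp5 probe sets lie above 0 in KLS, and 3 Fkbp7 probe sets lie at -3.81 or lower in SLAM while the other pair lies at -0.24 and -0.42.

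In KLS cells Fkbp7 was close between genotypes at 6 weeks and lower in mCG-PR at 13 weeks. WT KLS read 7.15, 6.78, 7.02 and 7.60, and mCG-PR KLS 7.01, 6.95 and 7.08 at 6 weeks. At 13 weeks it read 6.60 and 6.18, below all WT arrays, a difference of -0.75 ± 0.22. That difference came from part of the gene: of its 5 probe sets 3 were lower and 2 higher, with a median of -0.03 and 2 lower by more than 1. With the mean of the probe sets it was -0.37. At 6 weeks the difference was -0.12 ± 0.20. The mCG-PR KLS array of 6 weeks with a low Y-linked signal, replicate 3, read 7.08 for Fkbp7, slightly above the other 2 of its group. For Fkbp5 the same array read 8.45, above the 7.93 and 7.95 of the others in its group. The part of the Y-linked signal in either gene was not tested.

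The difference between populations had opposite signs in the 2 genotypes. Fkbp7 was 1.32 ± 0.35 higher in WT SLAM than in WT KLS, while its difference of mCG-PR SLAM from mCG-PR KLS of 6 weeks was -2.23 ± 0.36. The WT difference was 0.74 without WT SLAM replicate 2 and 1.91 without replicate 1. With the mean of the probe sets it was 0.50, and 3 of the 5 probe sets were higher and 2 lower. In mCG-PR all 5 were lower. The mCG-PR difference kept between -2.31 and -2.14 when any 1 array was left out. These contrasts use the arrays that led to the choice of Fkbp7 and are given without a test.

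By mean level Fkbp7 ordered the groups as WT SLAM (8.46 ± 0.83 SD), WT KLS (7.14 ± 0.34 SD), mCG-PR KLS of 6 weeks (7.01 ± 0.06 SD), mCG-PR KLS of 13 weeks (6.39 ± 0.30 SD) and mCG-PR SLAM (4.79 ± 0.12 SD). Only WT KLS and mCG-PR KLS of 6 weeks overlapped among neighbours in that order. The mCG-PR SLAM level lay below the filter threshold of 6, where signal near background leaves the size of a difference uncertain.

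All lists of other cells but that of B cells were lower on both mCG-PR SLAM arrays than on both WT SLAM arrays. The 5 neutrophil markers averaged 9.95 and 11.58 in WT and 8.12 and 9.15 in mCG-PR, and the 9 measured stromal markers of 10 averaged 6.09 to 6.61 and 5.88 to 6.07. The 5 macrophage markers averaged 6.37 to 6.38 and 5.55 to 6.31, and the 5 megakaryocyte markers 7.08 to 7.15 and 6.66 to 6.83. Plasma cell markers (7 of 8 measured) averaged 6.44 to 6.82 and 5.94 to 6.06, and T and NK cell markers (5) 5.67 to 5.74 and 5.22 to 5.66. Erythroid markers (2 of 5) averaged 6.49 to 6.57 and 5.73 to 6.22, and B cell markers (4 of 5) overlapped, at 6.00 to 7.38 and 6.29 to 6.37. Their part in the Fkbp7 difference was not tested.

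The genes most like Fkbp7 over the 13 arrays were Ctsd, a lysosomal protease (r = 0.934), Naa38, a subunit of an N-terminal acetyltransferase (0.89), Cyld, a deubiquitinase (0.886), Khdc4, an RNA-binding protein (0.885), and Atp6v1e1, a subunit of the vacuolar proton pump (0.882). Ctsd read 8.83 and 9.53 in WT SLAM and 7.70 and 7.93 in mCG-PR SLAM, and 8.33 to 8.62 on all KLS arrays. The genes beside Fkbp7 on its chromosome differed less: Plekha3 by -0.68 ± 0.68 and Prkra by 0.02 ± 0.38 in SLAM. Beside Fkbp5, Tulp1 differed by 0.08 ± 0.13 and Tead3 by 0.10 ± 0.18 in KLS of both ages.

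Fkbp2, a small FKBP of the endoplasmic reticulum, was lower in SLAM cells than in KLS cells of both genotypes. WT KLS read 10.20, 9.87, 10.61 and 10.24, and WT SLAM 9.06 and 8.35. Fkbp2 fell by 1.53 ± 0.32 on the log2 scale, 2.88-fold lower in WT SLAM (limma adjusted p = 0.0218), with no overlap of arrays. In mCG-PR the KLS arrays of 6 weeks read 10.33, 10.75 and 10.44 and the SLAM arrays 9.72 and 9.06. There it fell by 1.12 ± 0.33, 2.17-fold lower (limma adjusted p = 0.0367), again with no overlap. The 2 comparisons share no array, and all 5 probe sets of Fkbp2 were lower in each. The size was uneven along the gene. In WT the probe sets ran from -2.91 to -0.27, and only 3 of the 5 had arrays that did not overlap. In mCG-PR they ran from -1.92 to -0.40, with no overlap in any of the 5.

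Fkbp2 was the only 1 of the 6 members tested that passed in either comparison. The share of all genes that passed was 3.12% in WT and 13.1% in mCG-PR, against 1 of 6 members. Those shares are not fixed: the 330 genes in WT became 92 or 98 without SLAM replicate 1 or 2, and the 1387 in mCG-PR became 396 or 503. Without weights they were 1229 and 2394. In simulated data with the spreads of these arrays, more of the calls between SLAM and KLS were false than the threshold allows. The adjusted p-values of these comparisons, here and in the gene lists, may therefore be too small. The simulation took the spread of each gene, estimated from few arrays, as its true spread, so it cannot say by how much. The Fkbp2 call rested on single arrays. In WT it was lost without SLAM replicate 1 (adjusted p = 0.0531) or without SLAM replicate 2 (difference -1.17, adjusted p = 0.240). In mCG-PR it was lost without SLAM replicate 1 (adjusted p = 0.0832) or replicate 2 (difference -0.79, adjusted p = 0.373), and without KLS replicate 2 (0.0778) or replicate 3 (0.0551). It was also lost in mCG-PR with quantile normalisation and when array medians were subtracted (difference -0.95, adjusted p = 0.0867). The median of all genes in that comparison was -0.19.

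In the genotype contrast within SLAM cells Fkbp2 was 0.69 ± 0.42 higher in mCG-PR, with array values 9.72 and 9.06 against 9.06 and 8.35, where the nearest arrays are equal after rounding. The difference was 0.33 without WT SLAM replicate 2, 0.36 without mCG-PR SLAM replicate 1 and 1.04 without WT SLAM replicate 1. Its probe sets ran from -0.61 to 2.26. In KLS cells it was 0.28 ± 0.16 higher in mCG-PR, and the genotypes overlapped. The plasma cell list, which marks cells rich in endoplasmic reticulum, averaged 6.63 to 7.55 in WT KLS and 6.44 to 6.82 in WT SLAM. In mCG-PR it averaged 6.80 to 7.18 in KLS of 6 weeks and 5.94 to 6.06 in SLAM. Its part in the Fkbp2 difference was not tested.

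Fkbp11, a membrane-anchored FKBP of secretory cells, spanned only 6.27 to 6.76 over all 13 arrays, and its differences in the comparisons of genotype, population and age lay between -0.09 and 0.12. Fkbp14, an FKBP of the endoplasmic reticulum that acts on collagen, was near background. It read 4.60 to 6.06 in WT KLS and 4.35 to 4.38 in mCG-PR KLS of 6 weeks, and 4.71 and 5.44 at 13 weeks.

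Fkbp3, the nuclear member, read 10.82 to 11.16 in WT KLS, 10.31 and 10.56 in WT SLAM and 9.95 and 10.27 in mCG-PR SLAM. Its difference between SLAM and KLS was -0.53 ± 0.28 in WT (limma adjusted p = 0.355) and -0.81 ± 0.29 in mCG-PR (limma adjusted p = 0.0806). Neither passed, although the SLAM arrays lay below the KLS arrays in both. Fkbp4 did not pass either, at 0.09 ± 0.23 in WT (limma adjusted p = 0.889) and -0.61 ± 0.23 in mCG-PR (limma adjusted p = 0.0969).

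Fkbp1a, the drug receptor, read 8.16 to 8.84 in WT KLS and 8.34 and 8.75 in WT SLAM. Its difference between populations was 0.03 ± 0.30 in WT (limma adjusted p = 0.980) and -0.35 ± 0.31 in mCG-PR (limma adjusted p = 0.520). Between genotypes it was 0.23 ± 0.17 in KLS of both ages and 0.06 ± 0.39 in SLAM. By age the KLS difference was 0.44 ± 0.17 at 6 weeks and -0.07 ± 0.19 at 13 weeks. The arrays overlapped in each of these.

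**Figure D4:**
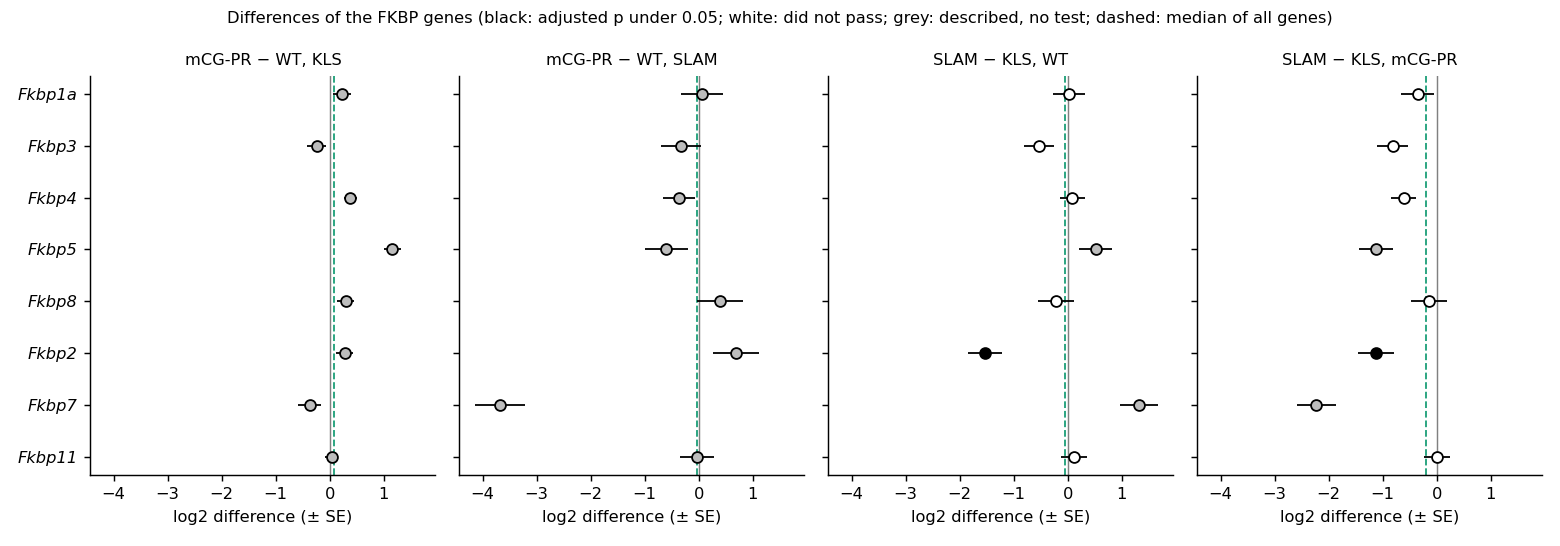
Log2 difference ± SE (x axis) of the 8 FKBP genes above the filter (y axis) in 4 comparisons. Black points passed at an adjusted p under 0.05, white points did not, grey points are described without a test, and the dashed line is the median difference of all genes. Fkbp2 alone is black, in both comparisons of SLAM with KLS, and Fkbp5 and Fkbp7 lie farthest from 0 in the genotype comparisons of KLS and SLAM.

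Across the 8 members above the filter, 2 (Fkbp4 and Fkbp5) lay higher on every mCG-PR KLS array than on every WT KLS array, and 0 lay lower on all. Over all genes that share was 3.55% higher and 0.652% lower. With the 13-week mCG-PR KLS arrays alone, Fkbp3 (-0.54 ± 0.18) and Fkbp7 (-0.75 ± 0.22) lay below all WT KLS arrays. Fkbp4 and Fkbp5 lay above them. The share of all genes is not given here for that age. In SLAM, 1 member (Fkbp2) lay higher on both mCG-PR arrays and 4 (Fkbp3, Fkbp4, Fkbp5 and Fkbp7) lower, where 35.2% of all genes did not overlap. The choice of Fkbp5 and Fkbp7 used these contrasts, so the counts are descriptive. By limma's adjusted p, 0.113% of all genes (12) passed in KLS of both ages and 0.0284% (3) in SLAM. Those numbers depend on the weights, without which 0 passed in KLS and 270 in SLAM. In KLS the number ran from 0, without WT KLS replicate 2, to 36, without WT KLS replicate 3.

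Between 13 and 6 weeks in mCG-PR KLS, 0 of the 7 members tested passed by limma, as did only 0.00946% of all genes. At an unadjusted p under 0.05 there were 3, all lower at 13 weeks, where 12.0% of all genes had such a p. Fkbp7 differed by -0.63 ± 0.24 (limma adjusted p = 0.344), Fkbp1a by -0.51 ± 0.20 (0.351) and Fkbp3 by -0.49 ± 0.19 (0.344). Each had both 13-week arrays below all 3 of 6 weeks, as 20.1% of all genes did. Probe set by probe set the medians were smaller, -0.13 for Fkbp7, -0.24 for Fkbp1a and -0.22 for Fkbp3. With the mean of the probe sets Fkbp1a differed by -0.18, and without 1 array Fkbp7 differed by -0.84 to -0.42. Fkbp5 was 0.29 ± 0.21 higher at 13 weeks, with overlap, and is given without a test.

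Glucocorticoid response genes form the setting in which Fkbp5 is best known. Of the 30 listed, 22 were tested, and Il7r, an interleukin receptor, was the only 1 to pass in mCG-PR KLS of both ages. It rose by 1.37 ± 0.24 (limma adjusted p = 0.0382), in a contrast where 0.113% of all genes passed. That call was lost without any 1 mCG-PR KLS array or without WT KLS replicate 1, 2 or 4, with adjusted p between 0.0543 and 0.149. It was also lost with no filter (0.0699), no weights (0.159), only the groups compared (0.0546), the replicate block (0.0718) and only WT KLS replicates 3 and 4 (difference 0.87, adjusted p = 0.457), so 13 of 23 alternatives ended it. By age, Il7r rose by 1.54 ± 0.27 at 6 weeks (limma adjusted p = 0.0430), a call that 19 of 23 alternatives ended. At 13 weeks it rose by 1.12 ± 0.31 and did not pass (limma adjusted p = 0.174). The median difference of the list in KLS of both ages was 0.16, against 0.09 for all genes.

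In the comparisons of populations the list held other genes that passed, 2 of 22 higher in WT SLAM and 3 of 22 higher in mCG-PR SLAM, where 0.350% and 0.813% of all genes passed as higher. Sult1a1, a sulfotransferase, was higher in SLAM than in KLS, by 1.65 ± 0.27 in WT (limma adjusted p = 0.00577) and 1.45 ± 0.27 in mCG-PR (0.00389). Tgm2, a transglutaminase, was higher by 1.50 ± 0.25 (0.00701) and 0.98 ± 0.26 (0.0219). In mCG-PR, Tsc22d3, the glucocorticoid-induced leucine zipper, was higher in SLAM by 1.97 ± 0.40 (limma adjusted p = 0.00547), and Il7r was lower by -3.27 ± 0.49 (0.00120). Without WT SLAM replicate 2 neither Sult1a1 nor Tgm2 passed in WT, and without replicate 1 Tgm2 did not. In mCG-PR Tgm2 was lost without SLAM replicate 2 or with only the groups compared, and Tsc22d3 without dim probe sets. Without mCG-PR SLAM replicate 1 the mCG-PR count of genes higher in SLAM fell from 3 to 0. In mCG-PR, Tsc22d3 was higher and Fkbp5 lower in SLAM than in KLS of 6 weeks. Within mCG-PR KLS both were higher at 13 than at 6 weeks. Tsc22d3 differed there by 0.68 ± 0.26, which did not pass (limma adjusted p = 0.344), and Fkbp5 by 0.29 ± 0.21. A link between these genes was not tested.

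Hsp90 and its co-chaperones, the complex that Fkbp4 and Fkbp5 join, had 0 of 25 tested genes past limma's threshold in KLS of both ages. The nearest were Ahsa1, an activator of Hsp90 (0.57 ± 0.13, limma adjusted p = 0.126), and Stip1, which bridges Hsp70 and Hsp90 (0.57 ± 0.16, limma adjusted p = 0.161). The median of the list was 0.04, against 0.09 for all genes. In mCG-PR SLAM against KLS of 6 weeks, 6 of 25 fell and 0 rose, where 12.3% of all genes passed as lower. The median was -0.60, against -0.19 for all genes. Among them were Bag1, an Hsp70 nucleotide exchange factor (-2.03 ± 0.28, limma adjusted p = 0.000679), and Ptges3, the Hsp90 co-chaperone p23 (-1.41 ± 0.25, 0.00304). The count was 4 without either mCG-PR SLAM array or with quantile normalisation, and 9 with the mean of probe sets.

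Folding genes of the endoplasmic reticulum, the compartment of Fkbp2 and Fkbp7, had 31 tested members. In WT, 0 passed between SLAM and KLS; the nearest was Pdia4, a disulfide isomerase (-0.97 ± 0.31, limma adjusted p = 0.107). In mCG-PR, 9 of 31 fell, against 12.3% of all genes, including Dnajb11, a BiP co-chaperone (-1.42 ± 0.30, limma adjusted p = 0.00745), and Hsp90b1, the Hsp90 of the endoplasmic reticulum (-1.07 ± 0.26, 0.0142). That count was 13 with the mean of probe sets, 1 with quantile normalisation, 2 with array medians subtracted, 5 with only the groups compared or with the replicate block, 0 or 1 without the first or second mCG-PR SLAM array, and 2 or 3 without mCG-PR KLS replicate 2 or 3. Neither genotype contrast had any list gene that passed (0 of 31 in KLS and in SLAM), and the nearest in KLS was again Dnajb11 (0.58 ± 0.15, limma adjusted p = 0.144).

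Cyclophilins and parvulins, the other prolyl isomerases, had 13 tested genes and 0 that passed in KLS, in SLAM or in WT SLAM against WT KLS. In mCG-PR SLAM against KLS, 1 rose (Ppic, a cyclophilin of the secretory pathway, 1.20 ± 0.34, limma adjusted p = 0.0305) and 4 fell. Those that fell included Ppil3, a spliceosomal cyclophilin (-1.08 ± 0.27, 0.0167). Over all genes 0.813% passed as higher and 12.3% as lower there. The median of the list was -0.59, against -0.19 for all genes. Without mCG-PR SLAM replicate 1 none of the 13 passed, without replicate 2 only Ppil3 did, without KLS replicate 1 the 1 that rose was lost, and without KLS replicate 2 only 2 fell. With array medians subtracted, or only the groups compared, 1 rose and 1 fell, and with quantile normalisation 1 rose and 0 fell. With the mean of probe sets 0 rose and 6 fell, and with the replicate block 1 rose and 2 fell.

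Of the targets of FK506 and rapamycin, 23 genes were tested and 0 passed in either genotype contrast. Between SLAM and KLS, 2 passed as lower in WT and 3 in mCG-PR, and 0 passed as higher. Over all genes 3.12% passed in WT, in either direction, and 12.3% passed as lower in mCG-PR. Rheb, the small GTPase that activates mTOR, was lower in SLAM than in KLS, by -1.75 ± 0.27 in WT (limma adjusted p = 0.00501) and -2.39 ± 0.28 in mCG-PR (0.000296). Ppp3cc, a catalytic subunit of calcineurin, was lower in WT SLAM (-1.71 ± 0.34, 0.0159). In mCG-PR, Itpr2, a calcium release channel, and Nfatc3, a calcineurin target, were also lower, but the Nfatc3 call was lost with array medians subtracted, quantile normalisation, only the groups compared, the replicate block or without mCG-PR KLS replicate 2 or 3 of 6 weeks. Without WT SLAM replicate 2 neither Rheb nor Ppp3cc passed in WT, and without mCG-PR SLAM replicate 1 only Rheb passed in mCG-PR.

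Collagen-modifying genes, which Fkbp10 and Fkbp14 serve, had 10 tested members. Sparc, a collagen chaperone, was the only 1 that passed, higher in WT SLAM than in WT KLS by 1.64 ± 0.41 (limma adjusted p = 0.0409), and the call was lost without either WT SLAM array, either mCG-PR SLAM array, WT KLS replicate 2, 3 or 4 or mCG-PR KLS replicate 3 of 6 weeks, with only the groups compared and with the replicate block. Over all genes 0.350% passed as higher in WT SLAM than in WT KLS. Sparc read 7.56 and 8.86 in WT SLAM and 6.49 and 6.56 in mCG-PR SLAM, a difference of -1.68 ± 0.54 that did not pass (limma adjusted p = 0.430). Of 7 other FKBP and related genes, 3 were tested, and 0 passed in any of these comparisons. The largest difference among them was that of Fkbp9, another FKBP of the endoplasmic reticulum, 0.67 ± 0.33 higher in WT SLAM than in WT KLS (limma adjusted p = 0.313).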

How the data were processed

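The authors deposited 1 table of linear intensity values, 229581 probe sets on 13 arrays. The submitters' processing notes name RMA and the mm9 build, with no versions or settings in the sources used here. The log2 of each deposited intensity was taken, with no further scaling. A gene's value was the median log2 of its probe sets (3 or more), and genes above the 30th percentile of mean level were tested. All 13 arrays of 5 groups entered 1 fit in limma 3.58.1 (R 4.3.3) with array weights by sorted population, 1.43 for KLS and 0.45 for SLAM, and 4 groups for both ages. P-values are two-sided and adjusted by Benjamini-Hochberg over 10575 genes, with 0.05 as the threshold. The number of arrays limits precision. On simulated data with the spreads of these arrays, calls between SLAM and KLS were false more often than the threshold allows, with or without weights.

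The members, the gene lists and the markers were chosen with earlier results of these data known. Named were all members, the 5 genes most correlated with Fkbp5 and with Fkbp7, and up to 4 genes of each list per comparison (those that passed, by p, or else the nearest 2). Same-numbered replicates did not deviate together (r from -0.07 to 0.08 over 21 pairs), so no sign of pairing was seen. That cannot exclude a pairing, since in groups of 2 arrays the deviations from the mean mirror each other. Alternatives were the filter, the mean of probe sets, dropping dim probe sets, array medians, quantile normalisation, no weights, only the groups compared, the replicate number as a block, 2 WT KLS arrays only and leaving out each array.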

Additional observations from a re-analysis of the deposited data

Results flagged for a closer look

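Genotype differences of opposite direction in KLS and SLAM cells were seen for a pair of members. Fkbp5 was 1.16 higher in mCG-PR KLS of both ages than in WT KLS, and -0.60 in SLAM, with no overlap of arrays in either. Fkbp4 was 0.38 ± 0.12 higher in KLS and -0.36 ± 0.30 in SLAM, also with no overlap. Of all genes, 35.2% did not overlap in SLAM, and 3.55% lay higher without overlap in mCG-PR KLS. Without WT SLAM replicate 2 the Fkbp5 difference in SLAM was -0.08. The difference between the populations was not tested, because Fkbp5 and Fkbp7 were chosen on these contrasts and no member is tested in them. For Fkbp7 the difference between SLAM and KLS was 1.32 in WT (0.50 with the mean of probe sets) and -2.23 in mCG-PR of 6 and 7 weeks, again with every array of one population on one side, and that difference was not tested either. No array of WT KLS, the only group of 4, was set apart for any of the 9 members by Dixon's test.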

How the results depend on the processing

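The number of members that passed in mCG-PR SLAM against KLS of 6 weeks was 1; it was 3 with the mean of probe sets and 3 without weights, when Fkbp3 and Fkbp4 passed too, 0 with array medians subtracted, with quantile normalisation or with the replicate block, and 0 to 2 when 1 array was left out. In WT SLAM against WT KLS the number was 1, 0 with the replicate block and 0 to 1 without 1 array. For 13 against 6 weeks it was 0 under every alternative run. With the replicate block the Fkbp2 differences were -1.44 (adjusted p = 0.0620) and -1.04 (adjusted p = 0.0850), and Il7r in KLS no longer passed (0.0718). The Fkbp7 difference in SLAM was -2.82 with the mean of probe sets and the Fkbp5 difference in KLS lay between 1.07 and 1.23 throughout.

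Differences near 0 changed sign in places. For 13 against 6 weeks these were Fkbp2 (-0.12) and Fkbp8 (0.05) with the mean of probe sets, Fkbp8 with array medians (0.02) or quantiles (0.07), and Fkbp11 without dim probe sets (0.03). For mCG-PR SLAM against KLS they were Fkbp8 with array medians (0.03) or quantiles (0.06) and Fkbp11 without dim probe sets (-0.02). For WT SLAM against WT KLS it was Fkbp11 with only WT KLS replicates 3 and 4 (-0.01).

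Leaving out 1 array also turned small differences. For WT SLAM against WT KLS the ranges were -0.18 to 0.23 for Fkbp1a, -0.02 to 0.19 for Fkbp4, -0.62 to 0.17 for Fkbp8 and -0.05 to 0.29 for Fkbp11. For mCG-PR SLAM against KLS they were -0.55 to 0.28 for Fkbp8 and -0.03 to 0.06 for Fkbp11. For 13 against 6 weeks they were -0.06 to 0.14 for Fkbp2, -0.01 to 0.24 for Fkbp4 and -0.05 to 0.01 for Fkbp8. Between genotypes in SLAM they were -0.25 to 0.36 for Fkbp1a and -0.02 to 0.81 for Fkbp8, and for Fkbp7 in KLS of 6 weeks -0.24 to 0.03. The Fkbp2 difference between genotypes in KLS (0.28) was 0.09 with only WT KLS replicates 3 and 4. In mCG-PR SLAM against KLS, Fkbp1a ranged from -0.66 to -0.05 without 1 array, and Fkbp4 from -0.96 to -0.38 over the other alternatives. The causes were not tested.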
